A study of Mus musculus with 8 samples.

Results

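Mbp, Mag, Mog, Cnp and Mobp, genes of the myelin sheath, were followed as 5 of the 17836 genes in the count table of Drd1a-tdTomato+ cells and 5 of the 15769 in that of golli-τ-eGFP+ cells. They were chosen by name as listed rows of both tables, with earlier results of these data known. Cells came from frontal isocortex of mice at postnatal day 7 and were sorted by flow cytometry for a red transgene, Drd1a-tdTomato (D1Tom below), or a green one, golli-τ-eGFP (GTE below), before single-cell RNA sequencing. D1Tom controls had the genotype Drd1a-tdTomato; Foxp2 flox/flox, and the matching conditional knockouts (cKO) had Emx1-Cre as well. GTE controls were golli-T-eGFP; Foxp2 flox/flox, and the GTE cKO label adds Emx1-Cre and a repeated Foxp2 flox/flox. Each sort had 2 control and 2 cKO libraries, all mice were on a C57BL/6J background, and every mouse carried floxed Foxp2 and a reporter transgene. D1Tom cKO 2 and GTE cKO 1 were labelled male and D1Tom cKO 1 and GTE cKO 2 female. Emx1-Cre is active in the cortical lineage that gives excitatory neurons and part of the glia, so other cells keep Foxp2. The study's design sets control against cKO mice in cell composition and expression.

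Myelin is the lipid-rich membrane that oligodendrocytes wrap around axons, and in the mouse cortex it has barely begun to form in the first postnatal week. Oligodendrocyte precursor cells (OPCs) leave the cell cycle, pass through a premyelinating stage and then switch on the genes for myelin proteins under factors such as Myrf and Sox10. Mbp encodes myelin basic protein, which holds the inner faces of the membrane together. Cnp encodes an enzyme of the cytoplasmic channels of myelin, Mag an adhesion protein of the membrane next to the axon, Mog an immunoglobulin-like protein of the outermost surface, and Mobp a small basic protein of compact myelin. The Mbp gene also has an upstream promoter that makes golli transcripts, known from neurons and from cells outside the nervous system as well as from oligodendrocytes, and the GTE transgene uses that promoter.

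The stretches just before the transcription starts of the other 4 genes are shown because these genes are read out together below. They are credited to RefSeq (GRCm38.p6), run 5′ to 3′ on the strand of the gene, and leave out bases of annotated exons. Capitals mark matches to ACAAAG (or its reverse complement CTTTGT), a core bound by SOX proteins such as Sox10, and to CTGGNAC on either strand, a core bound by Myrf. The Mag stretch is chr7:30914923-30915172 on the minus strand, in the gene's own 5′ flank (gene 30899176 to 30914873).
Mag: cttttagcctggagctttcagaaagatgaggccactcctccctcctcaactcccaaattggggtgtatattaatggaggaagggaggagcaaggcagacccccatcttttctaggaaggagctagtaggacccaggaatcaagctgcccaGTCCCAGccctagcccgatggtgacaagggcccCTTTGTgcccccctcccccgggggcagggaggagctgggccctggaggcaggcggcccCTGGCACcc
The Mog stretch is chr17:37023399-37023648 on the minus strand, directly before the gene (37010743 to 37023398).
Mog: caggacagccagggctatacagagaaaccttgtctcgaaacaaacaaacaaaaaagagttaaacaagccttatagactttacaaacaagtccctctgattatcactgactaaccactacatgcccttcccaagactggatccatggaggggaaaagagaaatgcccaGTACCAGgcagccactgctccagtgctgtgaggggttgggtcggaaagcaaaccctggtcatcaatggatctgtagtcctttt
The Cnp stretch is chr11:100574689-100574903 on the plus strand, directly before the gene (100574904 to 100591729).
Cnp: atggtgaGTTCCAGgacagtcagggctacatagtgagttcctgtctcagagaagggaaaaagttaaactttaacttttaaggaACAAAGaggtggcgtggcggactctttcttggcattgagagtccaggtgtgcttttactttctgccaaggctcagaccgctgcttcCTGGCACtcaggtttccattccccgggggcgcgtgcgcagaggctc
The Mobp stretch is chr9:120149492-120149706 on the plus strand, directly before the gene (120149707 to 120181484).
Mobp: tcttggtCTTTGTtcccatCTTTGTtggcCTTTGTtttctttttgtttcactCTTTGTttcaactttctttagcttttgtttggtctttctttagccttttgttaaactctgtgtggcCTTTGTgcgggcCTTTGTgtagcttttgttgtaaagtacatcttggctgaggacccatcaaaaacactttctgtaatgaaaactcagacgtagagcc
The SOX core occurred once in Mag, once in Cnp and 6 times in Mobp, and the Mog window did not hold it. The Myrf core occurred 2 times each in Mag and Cnp, once in Mog and not in the Mobp window. In 32851 promoter windows of RefSeq genes, the 250 bases before the start were searched, and exon bases were not left out there. Of these windows 16.5% held the SOX core and 16.1% the Myrf core, so a single match is common. The Cnp and Mobp stretches are shorter, at 215 bases each. Windows with 5 or more SOX cores numbered 2 (0.00609%), and the Mobp window, taken from the same set, is itself counted there. A match is a string of letters, and binding was not measured.

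D1Tom libraries held 2395 to 3206 cells with medians of 7198 to 12815 counts per cell, and GTE libraries 1440 to 3948 cells with medians of 1085.5 to 2982. Values of 2 were more frequent than values of 1 in 4 of the 8 libraries, so a count need not be 1 molecule, and the intervals on counts given below cover counting error only and are too narrow where it is not. Library pairs within a sort shared 4 to 27 cell barcodes. Levels are given as CPM, counts scaled to a common total per library or class. Foxp2, the floxed gene, measured 36.3 and 39.1 CPM in D1Tom controls against 26.5 and 19.4 in D1Tom cKO. Its GTE levels of 9.52 and 46.9 CPM (controls) and 25.4 and 7.43 (cKO) did not separate the genotypes. The labels do not say which exons are floxed, so 3′ counts need not check them, and the groups are used as labelled. GTE cKO 1 stood apart from the other GTE libraries: 34.0% of its cells fell in the OPC-marker class described next and 13.1% in no class, against 70.3% to 83.0% in no class elsewhere.

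Mbp lies on the plus strand of chromosome 18, from 82475146 to 82585637 in build GRCm38, in the GENCODE M21 annotation. Of its annotated transcripts, 4 start at the upstream promoter, between 82475146 and 82475370, and 12 start further down, between 82554470 and 82563262. The first starts of the 2 sets lie 79324 bases apart. Transcripts that reach the end of the gene come from both sets, 1 of the upstream starts and 6 of the downstream ones. The counts were made from the 3′ ends of transcripts and summed per gene, so golli and classic Mbp could not be told apart, and every Mbp value below is for both together. No value was taken for the reporter transgenes.

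Cells were placed by counts of fixed marker genes that include none of the 5 genes or of the lists below: an OPC class (Pdgfra, Cspg4, C1ql1 and others), a differentiating oligodendrocyte class (Gpr17, Bmp4, Neu4, Enpp6, Bcas1, Itpr2 and Tns3), neuron classes and an astrocyte class. Such a class is a range on a score and not a cell type, and 1562 D1Tom and 2383 GTE cells lay within 0.1 of the margin that assigns a cell. The differentiating class held 242 D1Tom cells (34 and 56 in the controls, 77 and 75 in the cKO libraries) and 145 GTE cells (4, 23, 106 and 12 in the same order). The OPC class held 1294 and 780 cells. The mature oligodendrocyte class held 2 D1Tom cells, both without Mbp, and no GTE cells, and is not described further. Opalin, a late oligodendrocyte gene, had a count in 0 of 11494 D1Tom cells and 1 of 11382 GTE cells. Of the 8 mature markers, 3 or more were present together in 43 D1Tom cells and 1 GTE cell, 0 of them in the differentiating class of either sort. Within that class Tspan2, which also appears before maturity, had a count in 80 D1Tom and 34 GTE cells. Gjb1 was seen in 16 D1Tom and 5 GTE cells of the class, Plekhh1 in 12 and 1, and Aspa in 4 and 0. Ermn, Mal and Hapln2 were each seen in at most 2 cells of a sort. In D1Tom the genes with the highest fold in the astrocyte-marker class included the immune genes Cd74 and H2-Ab1 and none of its own markers, although astrocyte markers summed to a median of 79.3 per 10000 counts there against 13.1 in the OPC class.

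All 5 genes had their highest pooled level in the differentiating class, among classes of at least 10 cells. Per D1Tom library (control 1, control 2, cKO 1, cKO 2), Mbp measured 3987, 2962, 3796 and 1382 CPM in that class and 32.9, 56.5, 39.8 and 56.7 in OPCs. Every differentiating sum was above every OPC sum, though the share of all genes for which that holds was not counted. The ratio of pooled levels was 64.8 (95% Poisson interval 59.1 to 71.1, counting error only). In edgeR's quasi-likelihood test over the 4 libraries with library as a block, the difference was 5.97 ± 0.23 (log2, SE; Benjamini-Hochberg adjusted p = 2.5e-16). That test called 9.67% of the 11152 genes tested in either direction. All 4 of the 5 genes that could be tested were called, all of them higher in the differentiating class. In GTE the differentiating class had 5017 CPM of Mbp in control 2, 10693 in cKO 1 and 5721 in cKO 2, and OPCs of these libraries had 127, 90.9 and 68.9. Control 1 had only 4 differentiating cells and was left out of this comparison. The difference was 6.19 ± 0.19 (edgeR over 3 libraries, adjusted p = 5.3e-217), where 3.23% of 8287 genes were called, and all 5 genes were called higher. GTE cKO 1 held 6356 of the 7164 Mbp counts in the differentiating class of these 3 libraries. With so few libraries, the size of this p-value is not read as a measure of the spread between them.

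Cnp had the smallest difference between the stages. Its D1Tom levels, in the same order of libraries, were 1128, 693, 1062 and 464 CPM in the differentiating class and 117, 79.9, 115 and 96.7 in OPCs. The groups did not overlap, but again the share of all genes for which that holds was not counted. The pooled ratio was 7.72 (7.19 to 8.30), and the test gave 2.99 ± 0.14 (log2, SE; edgeR, adjusted p = 9.2e-15). Cnp was already present in OPCs: with every cell thinned to 1000 counts, 9.27% of D1Tom OPCs held a count of it, against 1.81% of neurons and 2.38% of microglia (median depths before thinning 7492, 14504 and 10702 counts; shares 44.6%, 20.5% and 40.5%). The thinned share in microglia rests on few of 84 cells. Cnp was not particular to the lineage: the D1Tom astrocyte class had 128 CPM of it in the pooled sum, against 104 in OPCs. In GTE the differentiating sums of Cnp were 286, 1142 and 339 CPM, the pooled ratio was 9.81 (8.51 to 11.3) and the difference was 2.73 ± 0.29 (edgeR, adjusted p = 2.9e-18). Without GTE cKO 1 that call was lost, at 2.29 (edgeR, adjusted p = 0.14).

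Mag, Mog and Mobp were close to 0 in OPCs. Mag measured 66.4, 50.6, 71.1 and 39.6 CPM in the differentiating class of the 4 D1Tom libraries, while all 1294 OPCs together held 2 counts. The ratio was 305 with a counting interval of 83.1 to 2541, so its size is poorly known. The fitted difference was 7.81 ± 0.52 (log2, SE; edgeR, adjusted p = 2.4e-11). Mog in D1Tom was at 20.2, 26.5, 33.3 and 6.60 CPM in the differentiating class, against 1 count in all OPCs (7.01 ± 0.79, edgeR, adjusted p = 3.4e-07). The fitted differences of both genes lean on the small count that edgeR adds where a sum is at 0. Mobp had 3 counts in the D1Tom differentiating class and 1 in OPCs and did not pass the filter on low counts.

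In the GTE differentiating class of control 2, cKO 1 and cKO 2, Mag stood at 49.8, 97.6 and 84.8 CPM, Mog at 37.3, 38.7 and 0, and Mobp at 37.3, 32.0 and 0. GTE OPCs held no count of these 3 genes in any of the 4 libraries. Set against 3 counts over the OPCs of those 3 libraries, pooled Mag was at least 80.6-fold higher in the differentiating class, Mog at least 30.8-fold and Mobp at least 26.1-fold. The edgeR test called each, with adjusted p = 1.8e-07 for Mag, 0.026 for Mog and 0.043 for Mobp. Most of these counts were in GTE cKO 1: without it Mag, Mog and Mobp did not pass the filter on low counts, and without GTE control 2 the same was true of Mog and Mobp. DESeq2 put Mog at adjusted p = 0.067, and it called 3 of the 5 genes.

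**Figure D1:**
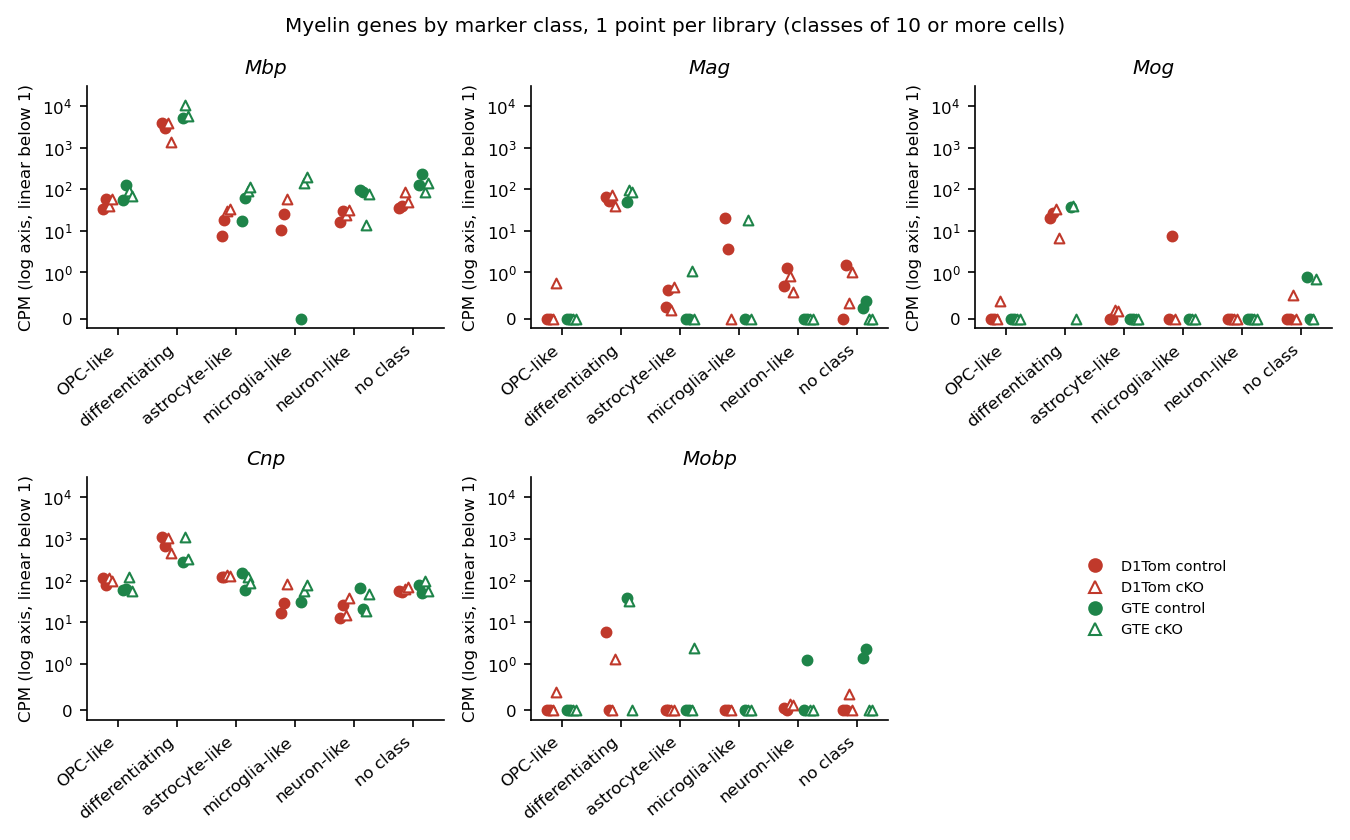
Level of each gene (CPM, log scale) in the marker classes, 1 point per library, for D1Tom and GTE. The differentiating class lies above the other classes for Mbp in both sorts (1382 to 3987 CPM in D1Tom), while Cnp reaches 117 CPM in D1Tom OPCs.

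The order in which the genes appeared was read within the lineage by the number of the 7 differentiating markers with a count in a cell. This is a description over OPC and differentiating cells pooled across libraries, and cells with more markers were also deeper, with a median of 5269 counts at 0 markers and 13387 at 7 in D1Tom. Mbp in D1Tom was at 37.5 to 57.9 CPM in cells with 0 to 3 markers, 72.6 at 4, 183 at 5, 3797 at 6 and 4622 at 7. It stepped up between 5 and 6 markers in each of the 4 libraries, which had 62.7 to 450 CPM at 5 markers and 921 to 7459 at 6. Cnp had 97.4 to 161 CPM from 0 to 5 markers, then 997 at 6 and 1175 at 7. Mag was at 1.5 CPM at 5 markers, 46.3 at 6 and 102 at 7, and Mog at 1.5, 19.2 and 41.1. In the pooled GTE cells Mbp went from 369 CPM at 4 markers to 14088 at 5, where the 34 cells had a median of 5453 counts. GTE cKO 1 held 25 of these 34 cells and 2811 of their 2928 Mbp counts. Its own levels were 526 CPM at 4 markers and 17267 at 5. Control 2 had 0 counts in 3 cells and then 6075 CPM in 6 cells. In cKO 2 the step came 1 marker later, with 185 CPM at 4 markers, 38.5 at 5 and 24506 at 6, in 9, 3 and 2 cells. Control 1 had 0 cells with 5 or more. All 33 Mag counts in the cells with 5 markers, and 18 of their 21 Mobp counts, were also in cKO 1.

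**Figure D2:**
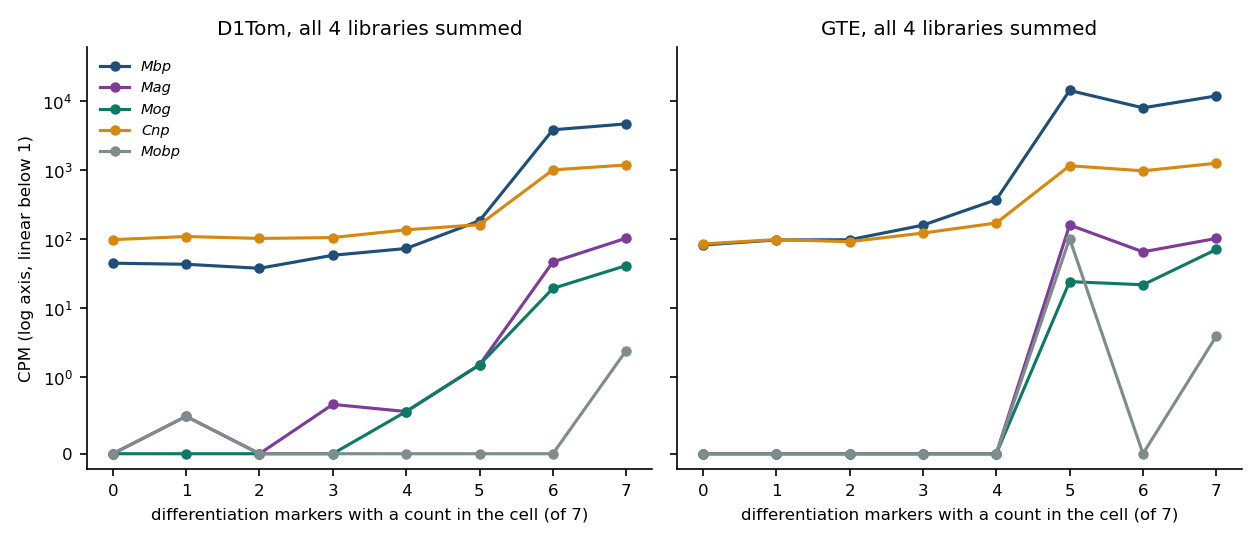
Level (CPM, log scale) of the 5 genes in OPC and differentiating cells against the number of differentiating markers with a count (0 to 7), pooled over the libraries of a sort. In D1Tom Mbp goes from 183 CPM at 5 markers to 3797 at 6.

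Within the differentiating class, a minority of cells held nearly all Mbp. In D1Tom 86 of 242 cells had 10 or more Mbp counts and together 96.9% of the Mbp of the class. All 86 also had Cnp, 45 had Mag (52.3%, exact 95% binomial interval 41.3% to 63.2%), 21 had Mog (24.4%) and 2 had Mobp. Of 74 cells with 1 to 9 Mbp counts, 56 had Cnp, 5 had Mag and 0 had Mog. The 82 cells without Mbp included 53 with Cnp, 2 with Mag and 0 with Mog, and their median depth was lower (7582.5 counts against 12915 in the Mbp-rich cells). In these cells Mog was therefore seen only beside 10 or more counts of Mbp, and Cnp often without it. In GTE 55 of 145 cells had 10 or more counts and held 98.1% of the Mbp of the class: 52 had Cnp, 22 Mag, 12 Mog and 4 Mobp. Mog was again at 0 in the 35 cells with 1 to 9 Mbp counts and the 55 cells with none.

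Shares of cells with a count depend on depth, so cells were also thinned to 1000 counts each. After thinning, Mbp was seen in 38.0% of differentiating D1Tom cells (66.1% before), 4.40% of OPCs (19.9%), 1.86% of the astrocyte class (9.98%) and 2.29% of neurons (20.8%). Microglia, which do not make myelin, had Mbp in 7.14% of 84 cells, with a counting interval of 2.67% to 14.9%. The 6 microglia with Mbp were 1 of 7 in cKO 1 and 5 of 39 in cKO 2, with 0 of 20 and 0 of 18 in the controls. Before thinning, 57 of the 89 Mbp counts in microglia were in cKO 1 (496 CPM, against 10.2, 25.9 and 57.2 in control 1, control 2 and cKO 2). This background rests on few cells, and no order of microglia against OPCs or neurons is read from it. In GTE the thinned shares of Mbp were 53.1% in differentiating cells, 5.29% in OPCs, 3.58% in the astrocyte class, 4.29% in neurons and 5.05% in cells of no class. Mag in D1Tom neurons, at 54 counts over 3768 cells (0.898 CPM), was seen in 0.0797% of thinned cells. Its share in the 84 microglia was 2.38%, which rests on too few cells to compare.

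Other genes of myelin rose along the same step. Of 15 listed myelin genes beside the 5, 12 could be tested in D1Tom, and 9 were higher in the differentiating class than in OPCs and 0 lower, with a median difference of 1.88 (log2) against -0.02 over all genes tested, of which 5.02% were called higher and 4.64% lower. Sirt2, a deacetylase of myelin, was 3.11 higher (edgeR, adjusted p = 3.4e-15), Nfasc, an adhesion molecule of the axon-glia contact, 3.12, and Cd9, a tetraspanin, 1.22. Omg, Cryab and Cntn2 did not pass the test, at 0.13, 0.19 and 0.25. In GTE 12 were tested and 10 rose, with a median of 2.47 against -0.14 over all genes, of which 1.88% were called higher and 1.35% lower. Of 12 listed regulators, 8 rose in D1Tom and 2 fell. Among the 4 with the highest level over all D1Tom cells, Zeb2, a transcription factor, rose by 1.12, Hes5, an effector of Notch signalling, fell by 0.91, and the inhibitors of basic helix-loop-helix factors Id2 (-0.04) and Id4 (0.24) did not pass the test. Chosen after their values were seen, Myrf, the factor that drives myelin genes, rose by 3.37, Tcf7l2 by 2.23, Nkx2-2 by 1.40 and Sox8 by 0.44, and Myt1 fell by 0.83. In GTE 10 regulators could be tested, with 4 higher (Myrf, Tcf7l2, Nkx2-2 and Zeb2) and Hes5 lower by 1.03.

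The genes whose levels most resembled each of the 5 were ranked by Pearson's r of log2(CPM + 1) over 36 sums, each a D1Tom class in 1 library, among 13487 genes. The sums share libraries. For Mbp the closest were Fyn (0.90), a kinase upstream of Mbp translation, Bcas1 (0.90), Enpp6 (0.88), Bmp4 (0.88) and Epcam (0.88), of which Bcas1, Enpp6 and Bmp4 are markers that define the class. Mog was closest to Cldn11 (0.91), a tight-junction protein of myelin, and Tmem88b (0.90), and Mag to Sirt2 (0.82) and Epcam (0.81). Cnp had other neighbours, namely S100a6 (0.94), Nkx2-2 (0.92), S100a1 (0.91), Slc44a1 (0.90) and Sirt2 (0.89). Mobp, with 10 counts in all, reached 0.63 with Epcam and is not read further.

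Outside the lineage Cnp and Mbp had different distributions. Cnp in the astrocyte class of the 4 D1Tom libraries measured 124, 123, 134 and 129 CPM, above its highest OPC level of 117. Neurons as a whole had 20.9 CPM of Cnp in the pooled sum. Against the astrocyte class, Cnp was lower in excitatory neurons by 2.83 ± 0.26 (log2, SE; edgeR, adjusted p = 1.7e-04), where 68.4% of 12932 genes were called. It was also lower in interneurons (-2.59, with 42.5% of genes called), Cajal-Retzius cells (-1.85, 31.8%) and other neurons (-2.54, 47.9%). Mbp did not pass the test in any of these 4 comparisons. Its differences were 0.43 ± 0.26 in excitatory neurons (edgeR, adjusted p = 0.18), -0.19 in interneurons, -0.65 in Cajal-Retzius cells and 0.20 in other neurons. With a stricter class rule Mbp in excitatory neurons was called at 0.78 (edgeR, adjusted p = 0.036).

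In neurons of the 4 D1Tom libraries Mbp measured 16.5, 29.7, 23.9 and 31.8 CPM, and in the astrocyte class 7.47, 17.7, 29.5 and 32.9, so the classes overlapped. The golli promoter is known for activity in deep-layer cortical neurons, and D1Tom excitatory neurons were therefore split by layer markers. Pooled Mbp was at 22.5 CPM in the layer 5 group, 19.7 in layer 6, 21.3 in the subplate group, 22.7 in upper layers and 32.7 in the remaining excitatory cells. The libraries spanned 10.7 to 53.3 CPM in layer 6 and 16.9 to 27.9 in upper layers. No order of layers could be read from these values.

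In neurons of the 4 GTE libraries Mbp measured 96.7, 87.5, 13.9 and 78.4 CPM, and the low value is that of cKO 1, with 34 neurons. Other neurons are those that the markers did not place as excitatory neurons, interneurons or Cajal-Retzius cells, and they need not lack such markers. Against the astrocyte class, Mbp was higher in them by 1.40 ± 0.32 (log2, SE, edgeR over 3 libraries, adjusted p = 3.2e-04), where 32.1% of 7436 genes were called. Leaving out 1 library at a time gave 0.99 to 1.99. Pooled Mbp was at 114 CPM in other neurons, 80.4 in the astrocyte class, 87.4 in OPCs and 35.9 in excitatory neurons. It was at 154 in cells of no class and at 127 in 64 microglia, which held 35 counts. The level in other neurons is therefore not read as particular to them. The other neurons had a median of 1444 counts, against 2784 in the astrocyte class and 3336 in excitatory neurons. In excitatory neurons the difference was -0.90 ± 0.63 (edgeR, adjusted p = 0.33), with 21.2% of genes called, and Cnp was lower by 2.09 ± 0.54 (edgeR, adjusted p = 0.0055). Without GTE cKO 1 that Cnp call was lost (-1.54, edgeR, adjusted p = 0.0504), and without GTE control 1 Mbp was called lower too (-1.86, edgeR, adjusted p = 0.021).

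The ratio of Mbp to Cnp counts gives a reading that does not depend on library totals. In D1Tom it was 3.59 ± 0.530 (SD, n = 4 libraries) in the differentiating class, 0.480 ± 0.20 in OPCs, 0.17 ± 0.0862 in the astrocyte class and 1.21 ± 0.306 in neurons. The 4 differentiating values, 2.98 to 4.27, all lay above the neuron values, 0.850 to 1.57, and these lay above the OPC values, 0.282 to 0.707. In GTE it was 14.6 ± 4.54 (n = 3) in the differentiating class, 1.21 ± 0.563 in OPCs, 0.798 ± 0.514 in the astrocyte class and 1.99 ± 1.47 (n = 4) in neurons. The GTE neuron ratios, 0.75 to 4.12, overlapped those of OPCs, 0.740 to 2, and all lay below the differentiating ratios, 9.36 to 17.5. Neurons, OPCs and the astrocyte class thus held less Mbp for each count of Cnp than differentiating cells did. No test was run on these ratios.

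**Figure D3:**
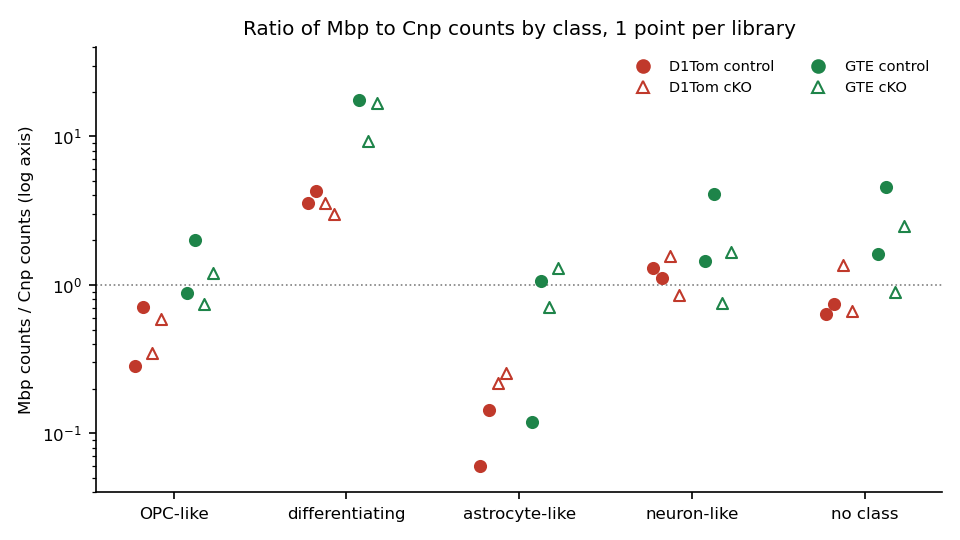
Ratio of Mbp to Cnp counts (log scale) by marker class, 1 point per library (filled circles, controls; open triangles, cKO; red, D1Tom; green, GTE). Differentiating cells lie highest in both sorts, at 2.98 to 4.27 in D1Tom and 9.36 to 17.5 in GTE.

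Between the sorts, Mbp and Mobp were higher in GTE over all cells. Mbp measured 56.2, 97.6, 156 and 75.6 CPM in D1Tom (control 1, control 2, cKO 1, cKO 2) and 113, 243, 1331 and 193 in GTE. The lowest GTE library was below the highest D1Tom library. The difference was 2.29 ± 0.47 (log2, SE; edgeR over 8 libraries with genotype as a covariate, adjusted p = 0.0078), where 20.2% of 13765 genes were called, and 2 of the 5 genes. Mobp rested on 10 D1Tom counts and 37 GTE counts, at 0 to 0.136 CPM in D1Tom and 0.354 to 3.75 in GTE (4.73 ± 0.82, edgeR, adjusted p = 0.0037). Cnp (0.85 ± 0.30, adjusted p = 0.068), Mog (1.64 ± 0.73, 0.13) and Mag (0.60 ± 0.72, 0.59) did not pass the edgeR test. Cnp was called without GTE control 2 (1.03, edgeR, adjusted p = 0.040) or GTE cKO 2 (1.03, edgeR, adjusted p = 0.044), and Mag was at -0.78 without GTE cKO 1. Sort, table and sequencing depth coincide and cannot be told apart. Without the differentiating cells Mbp was still higher in GTE, by 2.46 (edgeR, adjusted p = 0.0018), and it was then the only one of the 5 called.

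**Figure D4:**
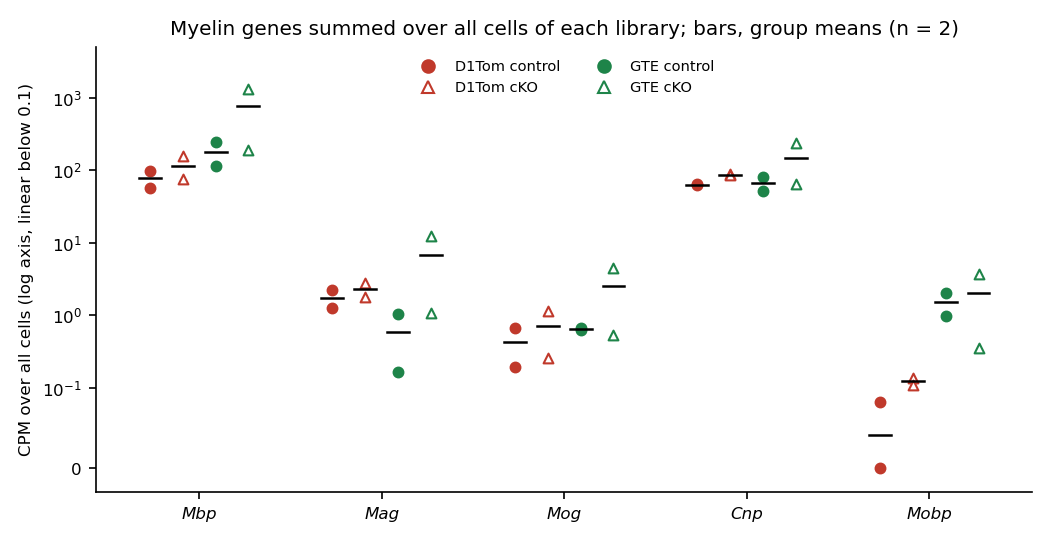
Level of each gene over all cells (CPM, log scale), 1 point per library, by sort and genotype. GTE cKO 1 is the highest library for Mbp, at 1331 CPM.

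In neurons alone Mbp was higher in GTE by 1.97 ± 0.47 (log2, SE; edgeR, adjusted p = 0.028), where 7.54% of 11994 genes were called, and it was the 1 of 2 genes tested that passed (Cnp 1.35 ± 0.54, adjusted p = 0.13). The edgeR call rests on single libraries: it was lost without D1Tom control 1 (1.69, adjusted p = 0.13), D1Tom control 2 (2.02, 0.12), D1Tom cKO 1 (1.97, 0.096), GTE control 1 (1.73, 0.053) or GTE cKO 2 (1.78, 0.14). The mix of neurons differed as well: other neurons were 800 of 993 in GTE and 354 of 3768 in D1Tom. Pooled Mbp in other neurons was at 114 CPM in GTE and 27.7 in D1Tom, and in excitatory neurons at 35.9 and 26.8. The part of this mix in the difference was not tested. Depth differed in the same direction as the sorts. GTE neurons had a median of 1688 counts and D1Tom neurons 14504. Among neurons with at least 4000 counts, 125 in GTE and 3375 in D1Tom, Mbp was at 111, 6.38, 11.2 and 8.96 CPM in the GTE libraries and 16.8, 29.8, 23.8 and 32.2 in D1Tom. In GTE, control 1 held 25 of the 31 Mbp counts and the other 3 libraries 2 each, at levels below every D1Tom library. The difference was then 0.55 ± 0.76 (edgeR, adjusted p = 0.74).

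Depth was also followed over all cells outside the lineage. In GTE their pooled Mbp level was 250 CPM in cells of 500 to 1000 counts, 156 at 1000 to 2000, 85.6 at 2000 to 4000, 69.6 at 4000 to 8000 and 28.3 above that. The shallow cells came almost wholly from the other 3 libraries, and GTE cKO 1 did not follow this order: it had 38.6 CPM at 1000 to 2000 counts (108 of 3694 cells), 113 at 2000 to 4000, 64.5 at 4000 to 8000 and 27.4 above that. Library and depth are thus mixed in the pooled values. Cnp over the same steps was at 60.2, 65.2, 87.4, 68.2 and 48.7 CPM, without the order seen for Mbp. In D1Tom Mbp had no such order (0 in 25 cells, then 27.3, 29.2, 47.4 and 26.0 CPM). In the deepest cells the libraries of the sorts overlapped, at 8.26 to 52.0 CPM in GTE and 14.9 to 33.5 in D1Tom. The part of depth in the difference between the sorts was not tested further.

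**Figure D5:**
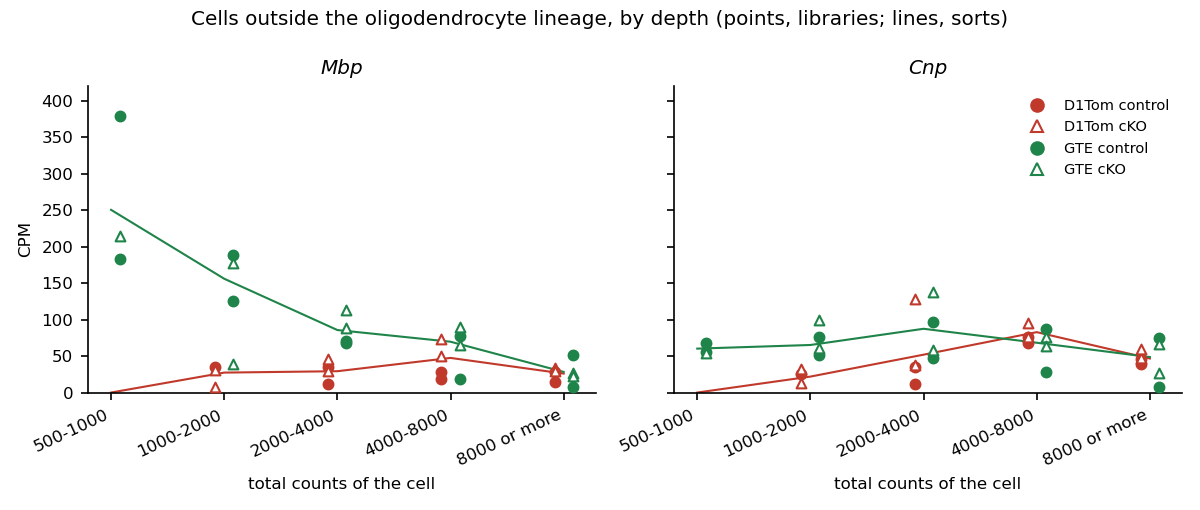
Level of Mbp and Cnp (CPM; points, libraries; lines, sorts) in cells outside the oligodendrocyte lineage against counts per cell, by sort. Pooled Mbp in GTE falls from 250 CPM in the shallowest cells to 28.3 in the deepest, and Cnp stays between 48.7 and 87.4.

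Between control and cKO none of the 5 genes passed the test in any of the 12 fits that used all 4 or 8 libraries and no replicate block. The replicate block pairs D1Tom libraries by preparation day, and with it Mbp was called in the D1Tom astrocyte class, as described below. In bulk sums over all cells, fewer cells of a type and less RNA per cell cannot be told apart. Over all D1Tom cells, where edgeR's quasi-likelihood test called 0% of 14508 genes (320 at an unadjusted p under 0.05, 24 by DESeq2), Mbp was 0.61 ± 0.39 (log2, SE) higher in cKO. Cnp measured 61.5 and 64.1 CPM in D1Tom controls against 89.0 and 85.0 in D1Tom cKO. These groups of 2 did not overlap, but the share of all genes for which that holds was not counted, so nothing is read from it. The difference in Cnp was 0.53 ± 0.15 (edgeR, unadjusted p = 0.012, adjusted p = 0.998). With the replicate number as a block 1 gene was called over all D1Tom cells, none of the 5. Mag was at 0.43 ± 0.45 and Mog at 0.71 ± 0.88. Mog turned to -0.59 without D1Tom cKO 1, which held 34 of its 72 counts, and Mag to -0.27 without the differentiating cells. Differentiating cells made up 1.06%, 2.34%, 2.74% and 2.43% of the 4 libraries, lowest in control 1, and held 50.6% to 74.3% of their Mbp counts. In simulated counts with the depth of these libraries, every gene had the same spread, and only genes of at least 100 counts were changed. There the test found 39.7% of genes changed by 1 on the log2 scale and 100% of those changed by 2, with 11 false calls. The spread of the 5 genes between libraries was not simulated, so these shares do not say what would be found for them.

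Over all GTE cells Mbp was at 1.53 ± 0.75 (edgeR, adjusted p = 0.94), in a fit that called 0.0332% of 12042 genes. The fit had 629 genes at an unadjusted p under 0.05, and DESeq2 called 2. GTE cKO 1 had 1331 CPM of Mbp, 7.36% of its cells in the differentiating class and 94.2% of its Mbp counts in them, against 0.101%, 0.749% and 0.411% of cells in control 1, control 2 and cKO 2. Without the differentiating cells the difference was -0.64. Without GTE cKO 1 it was 0.17. Cnp was at 0.54 ± 0.56, and at -0.12 without GTE cKO 1. Mobp was at -0.11 ± 0.90, and at 0.28 without GTE control 2 and 0.60 without GTE cKO 2. Mag and Mog did not pass the filter on low counts. The test of whether genotype differences differ between the sorts called 0% of 14026 genes (452 at an unadjusted p under 0.05, 5 by DESeq2), with Mbp at 0.94 ± 0.90 (edgeR, adjusted p = 0.94), and at -0.46 without GTE cKO 1.

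Within the D1Tom differentiating class, where the 4 testable genes could be compared per class and edgeR called 0% of 8979 genes (74 at an unadjusted p under 0.05, 0 by DESeq2), Mbp was at -0.43 ± 0.52 (log2, SE), Cnp at -0.25 ± 0.45, Mag at -0.05 ± 0.41 and Mog at -0.26 ± 0.68. The lowest library for all 4 was cKO 2, and without it Mbp was at 0.04 and Cnp at 0.14. Cnp was at 0.08 without control 1. The replicate block called 1 gene here, none of the 5. The other D1Tom classes, namely OPCs, excitatory neurons, interneurons, Cajal-Retzius cells and other neurons, had 0% of genes called, and Mbp and Cnp were not called in any of them. At an unadjusted p under 0.05 edgeR had 65 genes in OPCs, 161 in excitatory neurons, 1065 in interneurons, 36 in Cajal-Retzius cells and 132 in other neurons, and DESeq2 called 1, 6, 72, 0 and 0. With the replicate block the counts of called genes were 27, 6, 963, 2 and 9, again without the 5. In OPCs Mbp was at 0.14 ± 0.40 and Cnp at 0.15 ± 0.24. In GTE 0.0263% of 7607 genes were called in OPCs (Mbp -0.28 ± 0.48) and 0% of 8700 in the astrocyte class (273 at an unadjusted p under 0.05, 0 by DESeq2; Mbp 1.11 ± 0.51, edgeR, adjusted p = 1.00).

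The call of Mbp in the D1Tom astrocyte class depended on the design. Controls measured 7.47 and 17.7 CPM and cKO libraries 29.5 and 32.9, and cKO was higher within both preparation days. The same signs were seen in some other classes of these libraries, though not in all. Mbp in control 1, control 2, cKO 1 and cKO 2 was at 19.6, 32.6, 26.5 and 35.4 CPM in excitatory neurons, 8.38, 21.4, 20.1 and 27.3 in interneurons, 13.0, 22.8, 30.3 and 44.8 in other neurons, and 35.8, 40.4, 87.6 and 47.9 in cells of no class. The difference is therefore not read as particular to the astrocyte class. Over all cells of these libraries Mbp was at 56.2, 97.6, 156 and 75.6 CPM, and the part of Mbp from other cells in this class was not tested. The difference was 1.35 ± 0.41 (log2, SE; edgeR, adjusted p = 0.996), where 0% of 12140 genes were called (304 at an unadjusted p under 0.05, 8 by DESeq2). With the replicate number as a block, which the labels tie to a shared preparation day, it was 1.43 ± 0.26 (edgeR, adjusted p = 5.1e-04), in a fit that called 160 genes, 1.32% of those tested. Without D1Tom control 2 it was 2.11 (edgeR, adjusted p = 0.016), where 286 genes were called. Cnp was at 0.11 ± 0.20. The highest of these levels, 32.9 CPM, compares with 1382 CPM in the differentiating class of the same library.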

How the data were processed

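The authors deposited, for each sort, a table of whole-number UMI counts per gene and cell and a table naming each cell's library; the counts are not normalized. Per the submitters' processing notes, the tools were bcl2fastq 2.17.1.14, Cell Ranger 2.1.1, FastQC 0.11.5, UMI-tools 0.5.4, STAR 2.5.2b, Subread 1.6.2 with featureCounts and SAMtools 1.6, with builds mm10 and GRCm38.p6; their order and settings are not given in the sources used here. Total counts were 27323298 to 36379194 per D1Tom library and 4878370 to 6092396 per GTE library.

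Cells of at least 500 counts were scored for each marker list by the mean standardised log2(1 + counts per 10000), each value capped at 4. A class needed a score above 0.5, a margin above 0.3 over the next class and 3 markers with a count; the stricter rule needed a margin of 0.6. The rule and thresholds were set after the data were seen. The 5 genes, the marker lists and the gene lists were chosen with earlier results of these data known. All cells were kept, since the automatic threshold of Scrublet (scanpy 1.11.5) marked too few cells to have worked; an alternative left out the highest doublet scores, at 0.8% of cells per 1000 cells.

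Counts were summed per library, or per library and class (at least 30 cells in each library for genotype, 10 for classes), and tested two-sided with edgeR 4.0.16 in R 4.3.3 (glmQLFit, glmQLFTest, TMM factors, default filter on low counts), with Benjamini-Hochberg adjustment over all genes tested at 0.05. Alternatives were DESeq2 1.42.0, RLE factors, no filter, the replicate block, each library left out, the stricter rule and doublets. Leaving out the differentiating cells, neurons of at least 4000 counts and the crossed GTE pairing were added after seeing the data. Tests were tried on simulated data. Named beside the 5 genes are the 4 members of each list with the highest level over all D1Tom cells and, for likeness, the 5 closest genes, and further list members chosen after their values were seen; 1 gene of a list and 1 marker are not reported here.

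Libraries are separate samples per the labels, and the study gives 2 independent replicates per genotype. D1Tom libraries of the same number were prepared on the same day, per the labels, and their deviations from group means had a correlation of 0.52 over 10265 genes, so the numbers pair them. The text given for GTE repeats that of D1Tom, red sort included, so GTE batches are unknown.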

Additional observations from a re-analysis of the deposited data

How the results depend on the processing

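Over the alternatives run, the higher level of Mbp, Cnp, Mag and Mog in the differentiating class of D1Tom was called under each. The GTE calls rest on fewer counts: 3 of the 5 genes were called by DESeq2 and 1 to 5 with 1 library left out. With the replicate block, which pairs D1Tom libraries by preparation day, 1 of the 5 was called in the D1Tom astrocyte class (0 to 1 with 1 library left out), and no other call among the 5 changed. GTE libraries share only a number (correlation -0.49), and their replicate block called 0 genes over all cells, the crossed pairing 24 and the fit without either 4, in each case none of the 5.

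The stricter class rule called 2 genes between D1Tom excitatory neurons and the astrocyte class. In GTE that comparison had 0 to 2 calls with 1 library left out. Between the sorts 1 gene was called without the differentiating cells, and in neurons 0 to 1 with 1 library left out and 0 at 4000 counts or more.

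Without the differentiating cells these log2 differences turned sign: Mag in D1Tom cKO (-0.27), Mbp and Cnp in GTE cKO (-0.64 and -0.078), Mbp in the test of genotype by sort (-1.41) and Mag between the sorts (-0.76). With 1 library left out the ranges that crossed 0 were, for cKO over control, -0.59 to 1.92 for Mog in D1Tom, -1.18 to 0.042 for Mbp and -0.82 to 0.14 for Cnp in its differentiating class, and -0.12 to 1.17 for Cnp and -1.99 to 0.60 for Mobp in GTE. They were -0.46 to 1.64 for Mbp in genotype by sort and -0.78 to 1.02 for Mag between the sorts. None of these values passed the test, and the cause was not tested.

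Thinned to 500 counts, Mbp was seen in 1.41% of D1Tom neurons and 2.92% of GTE neurons; the thinning itself lowers such shares. Counts of called genes moved by over 1.5 times as follows. Between the stages DESeq2 called 691 in D1Tom and 152 in GTE, and leaving out a library gave 631 to 1122 and 13 to 320. Between the sorts a left-out library gave 1350 to 3522 over all cells and 151 to 1438 in neurons, where DESeq2 called 2252 and the deeper cells 174. For cKO against control over all cells, the range over the settings run was 0 to 24 in D1Tom and 0 to 27 in GTE, and within classes 0 to 963 and 0 to 49. Against the astrocyte class a left-out library lowered the count to 2697 for D1Tom interneurons, 1588 for Cajal-Retzius cells and 841 for GTE excitatory neurons, and DESeq2 called 1364 for other GTE neurons. Low counts of Mag, Mog and Mobp limit what can be seen for them.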

Other observations

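Cells rich in Mbp, with 10 or more counts, also occurred outside the oligodendrocyte lineage classes: 2, 3, 17 and 2 cells in the D1Tom libraries (control 1, control 2, cKO 1, cKO 2) and 10, 15, 4 and 13 in the GTE libraries. In GTE they had median depths of 989, 1211, 3662.5 and 1460 counts and held 28.2% to 34.3% of the Mbp counted outside the lineage. Mag and Mog were at 0 in all 42 of these GTE cells. Mobp, a gene with 37 counts in all of GTE, had 6 counts in 2 of them in control 1 and 4 counts in 3 of them in control 2, and 0 in both cKO libraries. Cnp had 3 to 23 counts per library in these cells. In D1Tom cKO 1, 10 of the 17 such cells had Cnp.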
